A study of Mus musculus with 18 samples.

Results

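Mouse embryo fibroblasts with 3 copies of chromosome 16 were compared with fibroblasts that carry the normal 2 copies, over all genes, on 6 of the 18 arrays of a series on trisomic fibroblast lines. The 3 Ts16 arrays carry RNA of lines with an extra chromosome 16, and the 3 Wt arrays are those controls with normal chromosomes whose titles hold the same first numbers, 89 or 92, as the Ts16 lines. Arrays were paired by replicate number: pairs 1 and 3 carry the first number 89 and pair 2 carries 92, and no label says what that number means. The remaining arrays are 6 further Wt lines, 4 Ts13 lines, 1 Ts1 line and 1 Ts19 line, and serve here only to set a background. All lines were grown in serum-containing medium for 2 passages, and 5 ug of total RNA was labelled with biotin. The strain, the age of the embryos and the chromosomal form of the trisomy are not stated in the labels. Nor is it stated that each line derives from a separate embryo, and p-values reflect sample-to-sample spread, which may in part be technical. Of 12394 genes with a probe set of their own, 7382 had a mean log2 expression of at least 4 over the 18 arrays and were tested, among them 243 of the 414 genes of chromosome 16 on the array.

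Mouse chromosome 16 carries a long block of genes whose human counterparts lie on chromosome 21, the chromosome present in an extra copy in Down syndrome, and mice trisomic for chromosome 16 were an early model of that condition. An additional copy of a chromosome adds template for every gene on it. Genes on the other chromosomes are not part of that copy. Differences in them may come from the products or the physiology of the added chromosome, or from other differences between the lines or cultures. Embryo fibroblasts make and organise connective tissue matrix, and the genes off chromosome 16 described here include many of their secreted proteins.

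The 2 genes with the smallest p-values over all 3 pairs, Prelp and Ecrg4, lie on chromosome 1, as does Fmod, which is the neighbour of Prelp with 0 protein-coding genes between them. Their promoters are shown because these genes lead the changes off chromosome 16 and because Prelp and Fmod were higher together in each pair. Each stretch, from RefSeq on build GRCm38.p6, holds 250 bases before and 50 from the annotated start, on the strand of the gene. The capitals mark the letters CCAAT, the CCAAT box, searched on both strands.
Prelp, chr1:133921352-133921651, minus strand: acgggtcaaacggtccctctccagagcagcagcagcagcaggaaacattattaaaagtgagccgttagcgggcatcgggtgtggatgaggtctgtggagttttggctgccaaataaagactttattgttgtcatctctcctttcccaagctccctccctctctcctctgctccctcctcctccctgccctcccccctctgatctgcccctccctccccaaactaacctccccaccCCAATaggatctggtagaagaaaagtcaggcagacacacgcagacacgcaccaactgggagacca
Fmod, chr1:134037004-134037303, plus strand: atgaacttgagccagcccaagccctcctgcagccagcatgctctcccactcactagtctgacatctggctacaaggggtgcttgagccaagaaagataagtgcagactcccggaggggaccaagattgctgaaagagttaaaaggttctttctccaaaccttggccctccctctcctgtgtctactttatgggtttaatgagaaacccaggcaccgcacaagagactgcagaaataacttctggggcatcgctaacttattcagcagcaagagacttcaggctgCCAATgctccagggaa
Ecrg4, chr1:43730352-43730651, plus strand: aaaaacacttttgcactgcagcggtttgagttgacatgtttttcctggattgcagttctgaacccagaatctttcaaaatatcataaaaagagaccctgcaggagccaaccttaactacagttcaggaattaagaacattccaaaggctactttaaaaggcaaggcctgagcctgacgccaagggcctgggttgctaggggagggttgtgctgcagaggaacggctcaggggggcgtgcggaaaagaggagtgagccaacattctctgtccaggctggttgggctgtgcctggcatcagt
The box begins 15 bases before the start of Prelp, at -15, and 34 bases after that of Fmod, and these letters are not in the window of Ecrg4. It is a common feature, present in 37.4% of 32851 promoter windows of this length. The TATA box letters TATAAA (13.6% of windows), the GC box letters GGGCGG (35.7%) and the AP-1 letters TGANTCA (7.81%), searched on both strands, are in none of the 3 windows.

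Ts16 replicate 1 stood apart from the other 5 arrays. Its Gapdh control probe sets differed by 6.55 on the log2 scale between the 3' and the 5' end of the message, against -0.20 to 0.36 on the other 5. Those of actin differed by 3.07 against 0.34 to 0.52. The control probe sets of the transferrin receptor did not set this array apart, at 3.60 against 3.59 to 4.37. Differences within pair 1 were also wider, with an SD over genes off chromosome 16 of 1.00, against 0.47 in pair 2 and 0.50 in pair 3. Across 7139 genes, which are not independent replicates, the differences of pairs 2 and 3 were correlated with r = 0.466, and those of pair 1 with the other 2 pairs with r = 0.170 and 0.167. Calls and main counts are therefore given over the 3 pairs and also over pairs 2 and 3 alone. Ts16 replicate 3 differed from the other 5 arrays in its sex-linked genes: Xist, transcribed from the inactive X chromosome, was at 11.76 against 2.27 to 2.51, and the Y-linked Eif2s3y at 2.86 against 10.04 to 10.48. Pair 3 thus sets a line with high Xist against one with high Eif2s3y, and the part of this difference in other genes was not tested. Fibroblast markers were high on all 6 arrays, with a mean log2 over 14 markers of 12.27 to 12.95 in Wt and 13.03 to 13.44 in Ts16. Erythroid and liver markers were under 4 on all 6 arrays, as were 12 of 16 macrophage markers. Other cell types were less uniform. Under 4 on all 6 arrays were 7 of 11 skeletal muscle, 6 of 11 neural, 7 of 10 endothelial, 6 of 9 epithelial and 5 of 8 cartilage and bone markers.

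**Figure D1:**
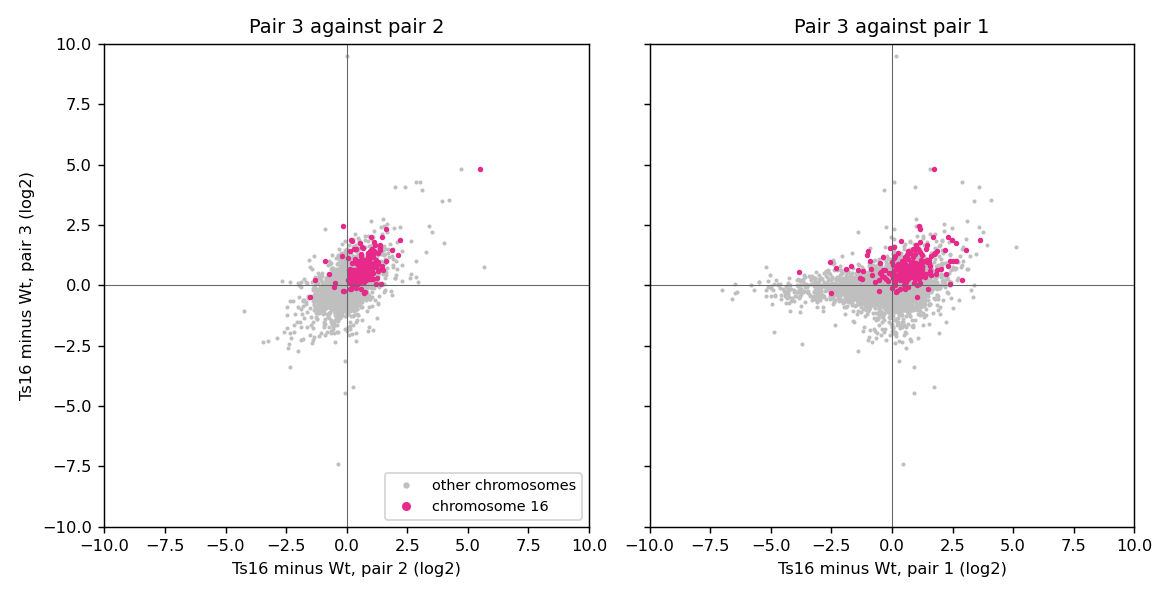
Each point is 1 of 7382 tested genes, placed by its Ts16 minus Wt difference (log2) in pair 3 (vertical) against pair 2 (left) or pair 1 (right), with genes of chromosome 16 in pink and all others in grey. Grey points follow a diagonal on the left (r = 0.466) and spread along the horizontal axis on the right (r = 0.167), whereas most pink points lie above 0 on both axes of either panel.

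The first question was how the genes of chromosome 16 themselves responded. They were higher as a group in each pair: their mean, relative to the other autosomes, was higher by 0.74 in pair 1, 0.70 in pair 2 and 0.77 in pair 3 on the log2 scale. This is 0.74 ± 0.03 (SD, n = 3 pairs), or 1.67-fold, where 3 copies against 2 would give 1.5-fold (0.58 in log2). The other 19 chromosomes, X included, lay between -0.30 and 0.27 in any pair, and between -0.08 and 0.03 in pairs 2 and 3. Against the mean of all 9 Wt arrays, the Ts16 arrays were at 0.67 to 0.76 and the single Wt arrays at -0.10 to 0.05. The exact test over 3 pairs gave p = 0.25 (two-sided sign flips) and that of 3 against 3 arrays p = 0.1, each the smallest that such a design allows. Against all 9 Wt arrays the exact permutation test gave p = 0.0045, again the smallest possible. That test ignores the first numbers. Permuted within first numbers over the 6 arrays, the shift of 0.74 gave an exact p = 0.167, which is the smallest that such a permutation can give. Without the filter on low signals, over all 414 genes of chromosome 16, the shift was 0.46.

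**Figure D2:**
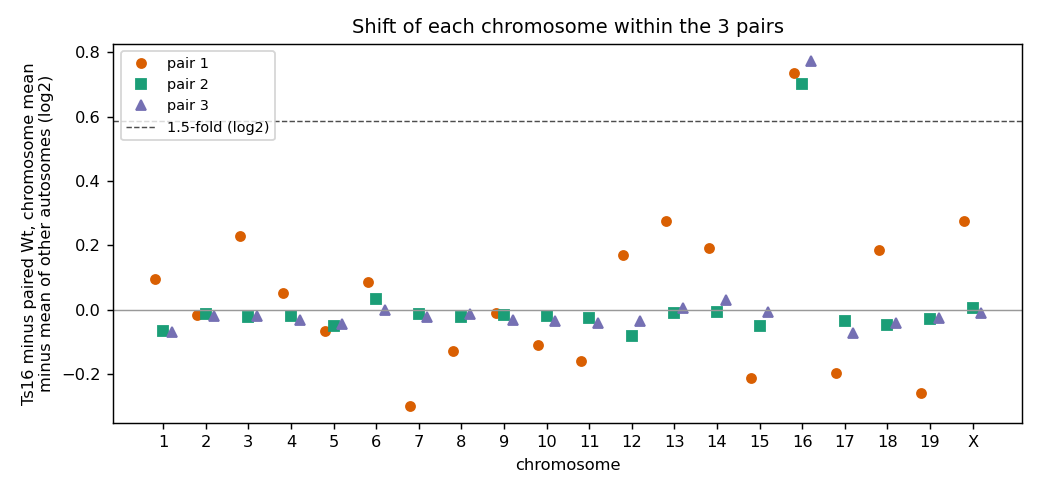
For each chromosome, the mean difference Ts16 minus paired Wt over its tested genes, relative to the mean of the other autosomes (log2), is drawn as 1 symbol per pair; the dashed line marks 1.5-fold. Chromosome 16 lies between 0.70 and 0.77 in all 3 pairs, and the orange symbols of pair 1 scatter more widely than those of pairs 2 and 3 elsewhere.

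The increase extended over most of the chromosome. The median difference over the 243 genes was 0.66, or 1.58-fold, with an interquartile range of 0.43 to 0.89, whereas the 7139 genes elsewhere had a median of -0.03 and a range of -0.25 to 0.16. On average 230 genes of chromosome 16 (94.7%) were above their paired control, against 45.8% elsewhere, and 197 (81.1%) were above it in 3 of 3 pairs, where the share over all tested genes was 17.7%. In pairs 2 and 3, 227 genes (93.4%) were above in both, against 22.5% elsewhere. Of the 13 genes below the control on average, 9 were above it in both pairs 2 and 3. Their low means came from pair 1: Rrn3, a transcription factor of RNA polymerase I, differed by -3.85 in pair 1 and by 0.61 and 0.56 in the others, and Ppil2, a cyclophilin-type ubiquitin ligase of the spliceosome, by -2.29, 0.85 and 0.71. Pdxdc1 was the only gene of chromosome 16 below its control in 3 of 3 pairs, by -0.52, -0.12 and -0.22 (over all tested genes, 17.9% were below in every pair).

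The size of the difference varied along the chromosome, which is given as a description without a test. With the genes in chromosomal order in 10 groups of 24 or 25, the median was above 0 in every group, and ran from 0.38 between Cdc45 and Rfc4 to 0.97 between Trmt10c and Chodl. In the former stretch the medians of the 3 pairs were 0.17, 0.61 and 0.49, so the low value was mainly that of pair 1. In the latter they were 1.12, 0.71 and 0.84. The first and the last group, from Naa60 to Nubp1 and from Son to Zbtb21, had medians of 0.68 and 0.67. By level, the 81 genes with the highest mean signal had a median of 0.58, and 95.1% of them were above their control in 3 of 3 pairs. The 81 with the lowest signal had a median of 0.74, but only 66.7% were above in every pair.

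**Figure D3:**
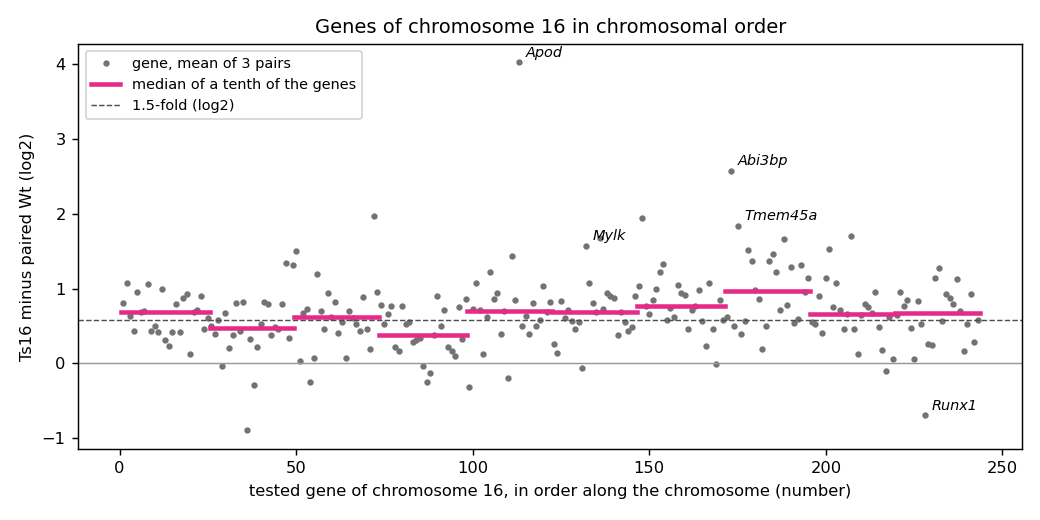
The 243 tested genes of chromosome 16 are drawn in chromosomal order (horizontal, gene number) against their mean Ts16 minus Wt difference over 3 pairs (log2, vertical); pink bars are medians of 10 consecutive groups, and the dashed line marks 1.5-fold. The bars lie between 0.38 and 0.97, and Apod and Abi3bp stand far above their neighbours.

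Gene by gene, limma called 0 of 7382 genes over the 3 pairs at a Benjamini-Hochberg adjusted p under 0.05 (0% of all genes; lowest adjusted p 0.0976, for Prelp). At an unadjusted p under 0.05 there were 696 genes, 9.43% of those tested, of which 165 lay on chromosome 16. Over pairs 2 and 3 alone, limma called 424 genes, 5.74% of those tested, with 276 higher (3.74%) and 148 lower (2%). On chromosome 16, 118 genes (48.6%) rose and 0 fell in these 2 pairs, and elsewhere 158 rose and 148 fell (4.29% of the genes there). That fit has 1 residual degree of freedom, so its spread comes mostly from all genes together (6.70 prior degrees of freedom). The names that follow are the genes with the smallest p over 3 pairs among those of 1 direction in every pair. They are 10 on chromosome 16 and 8 in each direction elsewhere. None passed over 3 pairs, and all 26 passed in pairs 2 and 3. Pairs 2 and 3 also had a part in choosing these genes, so their passing there is not independent support.

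Atg3, the enzyme that couples Atg8-type autophagy proteins to a membrane lipid, had the smallest p on chromosome 16. Its log2 expression was 12.30, 12.15 and 12.31 on Wt replicates 1, 2 and 3, and 13.27, 13.07 and 13.23 on the paired Ts16 arrays. The groups did not overlap, and the 3 Ts16 arrays also lay above the 6 other Wt lines (12.08 to 12.54). The difference was 0.94 ± 0.03 (SD, n = 3 pairs), or 1.92-fold (limma adjusted p = 0.172 over 3 pairs and 0.0019 over pairs 2 and 3). Averaged with the other probe set listed for Atg3, whose mean log2 signal is under 4, the difference was 0.49 (adjusted p = 0.499). Fam162a, a mitochondrial protein induced by hypoxia, stood at 13.10, 12.67 and 12.72 in Wt and at 14.21, 13.51 and 13.58 in Ts16, again beyond all 9 Wt arrays. Over all genes, 1.57% of those tested had every Ts16 array beyond all 9 Wt arrays, and 6.34% had no overlap between the 3 Ts16 and the 3 paired Wt arrays (4.08% with Ts16 higher and 2.26% with Ts16 lower).

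Among the other genes of chromosome 16 named by p, Vps26c, Lztr1, Pi4ka and Cggbp1 differed by 0.78 to 1.19 on average. Tmem45a, Pros1, Col8a1 and Mylk, also named by p, differed by more and are described below. Vps26c, a subunit of the retriever complex that recycles membrane proteins from endosomes, was higher by 1.22, 0.92 and 1.25 in the 3 pairs, and Lztr1, an adaptor for the ubiquitination of Ras proteins, by 0.96, 0.98 and 0.90. Pi4ka, the kinase that makes phosphatidylinositol 4-phosphate at the plasma membrane, was higher by 1.17, 1.04 and 1.38. Averaged with its other probe set, whose mean log2 signal is only 2.10, the mean was 0.61 in place of 1.19. Averaged over its probe sets, Lztr1 differed by 0.68 (limma adjusted p = 0.537 over 3 pairs). Cggbp1, a protein that binds CGG repeats, was higher by 0.84, 0.79 and 0.72. Of these, Vps26c, Lztr1 and Cggbp1 lay beyond all 9 Wt arrays, whereas Pi4ka on Ts16 replicate 2 (10.48) was below the highest other Wt line (10.53).

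Several chromosome 16 genes were above the dose of 1.5-fold. Against that ratio limma called 0 genes over 3 pairs (32 at an unadjusted p under 0.05). Adjusted over the 243 genes, pairs 2 and 3 gave 18 genes above it and 11 below. Apod, which encodes apolipoprotein D, a lipid carrier of the lipocalin family that quiescent fibroblasts secrete, was the highest of the chromosome. It was at 3.23, 3.73 and 3.68 on the Wt arrays and at 4.97, 9.25 and 8.49 on the Ts16 arrays, a difference of 1.74 in pair 1 and of 5.52 and 4.81 in pairs 2 and 3 (adjusted p = 0.00073 in the latter). The groups did not overlap, but the other Wt lines ran from 2.56 to 7.28. Abi3bp, a matrix protein, was at 4.31, 5.37 and 5.11 in Wt and 7.95, 7.56 and 6.99 in Ts16, whereas the 6 other Wt lines were at 6.97 to 11.37. Its high value in Ts16 therefore holds against the paired controls, and the Ts16 arrays were within the range of the other Wt lines.

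Tmem45a, a membrane protein, differed by 2.17, 1.87 and 1.47, and Pros1, the anticoagulant protein S, by 1.77, 1.27 and 1.34. Against all 9 controls Tmem45a was at 1.09 and Pros1 at 0.90, and the lowest Ts16 arrays (11.18 and 10.96) were below the highest of the other Wt lines (11.31 and 11.04). Col8a1, a collagen of the vessel wall and of basement membranes, differed by 1.16, 1.12 and 1.81. Its lowest Ts16 array (12.97) was below the highest of the other Wt lines (13.38), and against all 9 controls it was at 0.94. Averaged over its probe sets, Col8a1 differed by 1.04 (limma adjusted p = 0.611 over 3 pairs). Mylk, the kinase that activates smooth muscle myosin, was at 10.31, 11.43 and 9.01 in Wt and at 11.99, 12.45 and 11.03 in Ts16. The groups overlap through Wt replicate 2, although each pair moved the same way, by 1.68, 1.02 and 2.01. All 4 were among the 18 genes above the dose in pairs 2 and 3, as were the transcription factor gene Cebpd, which rose by 1.36 and 1.60 in pairs 2 and 3, and Tiam1, an activator of the GTPase Rac, which rose by 1.63 and 2.35.

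The 11 genes below the dose, named here after their values were seen, differed by between -0.996 and 0.34 on average in pairs 2 and 3. Lpp, a protein of focal adhesions, was higher by 0.11 and 0.15, Hmgn1, a nucleosome-binding protein, by 0.26 and 0.30, and Tra2b, a splicing factor, by 0.21 and 0.21. App, the amyloid precursor gene, was higher by 0.13 and 0.38, at signals of 13.97 to 14.59 in these pairs. St6gal1, a sialyltransferase, differed by -1.502 and -0.49 in pairs 2 and 3 but by 1.03 in pair 1. The others were Ets2, Pkp2, Pdxdc1, Tnk2, Eif4a2 and Fstl1. Mean log2 signals over the 18 arrays were 15.41 for Hmgn1, 15.37 for Fstl1, 14.35 for App and 13.67 for Lpp. Those of Tra2b and Eif4a2 were 13.32 and 13.26. Tnk2, Pdxdc1, Ets2, Pkp2 and St6gal1 were lower, at 11.36, 10.14, 10.11, 10.08 and 6.20. The part of signal level in these small differences was not tested.

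The genes with human 21 counterparts were set beside the rest of the chromosome, without a test of the difference. Of 49 tested, 37 (75.5%) were above the control in 3 of 3 pairs and 0 below, with a median of 0.65, against 160 of the other 194 (82.5%) with a median of 0.67. In pairs 2 and 3, 26 of the 49 rose and 0 fell. Son, a splicing factor, was higher by 0.51, 0.72 and 0.73. The ATP synthase subunit gene Atp5j was higher by 0.56, 0.56 and 0.44. Gabpa, a subunit of the factor that drives nuclear genes for mitochondria, was higher by 1.06, 1.02 and 0.64. The matrix proteases Adamts1 and Adamts5 were higher by 1.56, 1.28 and 0.59 and by 2.30, 1.46 and 0.82, and both lay beyond all 9 Wt arrays. Dyrk1a, a kinase gene studied in Down syndrome, was at 9.88, 9.39 and 8.93 in Wt and at 10.40, 10.16 and 9.72 in Ts16; the groups overlap, and the gene rose in pairs 2 and 3 (adjusted p = 0.024). A list of 53 other regulators and enzymes of the chromosome had 45 above in 3 of 3 pairs and 0 below, with a median of 0.52 and 23 that rose in pairs 2 and 3. It includes Mcm4, a subunit of the replicative helicase (0.92, 0.82 and 0.63), and Pdia5, a disulfide isomerase of the endoplasmic reticulum (0.83, 0.51 and 0.71).

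The next question was what changed on the other chromosomes. By at least the dose ratio in every pair, 114 genes elsewhere were higher and 53 lower, beside 63 higher and 0 lower on chromosome 16; over all genes tested this is 2.4% higher and 0.718% lower. Centring the arrays on their median off chromosome 16 gave 125 higher and 32 lower elsewhere, so the share of higher genes was 68.3% as deposited and 79.6% after centring. Of the 114, 15 lay beyond all 9 Wt arrays, and of the 53, 4 did; 0.925% of all genes elsewhere do. Pair 1 had no part in the calls from pairs 2 and 3, although it shares the first number 89 with pair 3. Of the 158 genes that rose elsewhere, 130 (82.3%) were also higher in pair 1, where 58.4% of all genes elsewhere were higher, and 96 (60.8%) by the dose ratio or more, against 19.2%. Of the 148 that fell, 85 (57.4%) were also lower in pair 1, against 41.6%, and 46 (31.1%) by the dose ratio, against 19.6%.

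Small leucine-rich proteoglycans were among the genes higher elsewhere. These secreted proteins bind collagen and set the spacing of its fibrils. Prelp, which anchors basement membranes to connective tissue, was at 6.10, 5.99 and 6.79 on Wt replicates 1 to 3 and at 10.17, 10.20 and 10.33 on the Ts16 arrays. Every Ts16 array was above every Wt array of the series, of which the 6 others were at 3.78 to 9.00. The difference was 3.94 ± 0.36 (SD, n = 3 pairs), or 15.3-fold, with a limma adjusted p of 0.0976 over 3 pairs and 0.00073 over pairs 2 and 3. A second probe set of Prelp differed by 2.49 on average.

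Fmod, fibromodulin, was at 11.81, 11.09 and 11.55 in Wt and at 12.96, 12.67 and 13.04 in Ts16, with no overlap (1.41 ± 0.23, SD, n = 3 pairs; other probe sets 0.45 to 1.91). Dcn, decorin, was at 8.07, 11.04 and 10.08 in Wt and at 10.03, 12.58 and 11.72 in Ts16. Its level differed more between lines of a group than between the members of a pair, so the groups overlap, yet each pair differed by 1.54 to 1.96. Lum, lumican, the neighbour of Dcn on chromosome 10, was at 3.60, 6.10 and 6.08 in Wt and at 7.37, 9.64 and 8.28 in Ts16. The paired Wt lines were low among the controls for this gene: the 6 other Wt lines were at 7.64 to 11.77, and against all 9 controls the difference of Lum was -0.29.

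Of 8 tested members of the family, a list completed after Prelp, Fmod, Dcn and Lum had been seen, 7 were above the control in 3 of 3 pairs and 4 rose in pairs 2 and 3. The median was 1.48, against -0.03 for all genes elsewhere, of which 15.5% were above the control in 3 of 3 pairs. Omd (2.73, 0.94 and 0.98), Ogn (1.60, 0.28 and 0.83) and Aspn (2.18, 0.16 and 0.37), 3 neighbours on chromosome 13, were higher by much more in pair 1 than in the other pairs and did not pass. Bgn, biglycan, was the exception, with differences of -0.52, 0.00 and 0.02. Against all 9 controls the median of the family was 0.30, with 5 of 8 members above.

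Other secreted proteins and enzymes were higher by large amounts. Ecrg4, a secreted peptide precursor also called augurin, was at 3.00, 3.59 and 2.97 in Wt and at 6.37, 7.52 and 6.47 in Ts16 (3.60 ± 0.29, SD, n = 3 pairs). The paired groups were far apart, but 3 is near the lowest signals of the array and the other Wt lines reached 7.94; against all 9 controls the difference was 1.73. Adh1, an alcohol dehydrogenase that also oxidises retinol, was at 4.02, 4.92 and 4.97 in Wt and at 6.91, 7.95 and 9.24 in Ts16, above all 9 Wt arrays. Rerg, a Ras-like GTPase first described as induced by oestrogen, was at 4.50, 5.95 and 3.92 in Wt and at 8.11, 8.37 and 7.99 in Ts16, also above all 9. Adh1 and Rerg differed by 3.40 ± 0.76 and 3.36 ± 0.85 (SD, n = 3 pairs).

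Growth factor genes were among those that rose in pairs 2 and 3. Vegfd and Vegfc, the ligands that drive growth of lymphatic vessels, were higher in every pair: Vegfd by 2.05, 2.67 and 1.84 and Vegfc by 1.12, 1.15 and 1.25. Against all 9 controls Vegfd was at 1.32. Flt1, a receptor and decoy for VEGF ligands, was higher by 0.79, 0.65 and 0.86. Of 8 tested VEGF ligands and receptors 5 were above in 3 of 3 pairs and 3 rose in pairs 2 and 3, in a list completed after their values were seen. The list medians were 0.75, 0.06 and 0.42 in pairs 1, 2 and 3. Over all tested genes 17.7% were above in 3 of 3 pairs and 3.74% rose in pairs 2 and 3. Igfbp3, a binding protein of insulin-like growth factors, was at 7.42, 8.89 and 9.46 in Wt and at 9.20, 10.36 and 11.59 in Ts16. It was higher by 1.78, 1.47 and 2.12 in the pairs, but against all 9 controls its difference was -0.25 (limma adjusted p = 0.954). The other Wt lines were at 9.50 to 12.50. Igfbp4 also rose in pairs 2 and 3, by 1.68 and 1.03, whereas Igfbp5 fell.

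Secreted Wnt inhibitors of the frizzled-related family also rose in pairs 2 and 3. Sfrp2 was at 5.81, 2.26 and 3.22 in Wt and at 7.38, 6.98 and 8.06 in Ts16, and Sfrp1 was higher by 1.01, 1.56 and 2.45. The other Wt lines spanned 3.94 to 11.14 for Sfrp2 and 7.04 to 10.04 for Sfrp1. Of 4 tested secreted Wnt modulators, a list completed after these values were seen, 3 were above in 3 of 3 pairs and these 2 rose in pairs 2 and 3 (median 1.25); against all 9 controls 1 of 4 was above, with a median of -0.25. Components of the first complement complex, C1ra and C1s1, were higher by 0.998, 1.92 and 1.52 and by 1.73, 3.27 and 1.40. The list of complement genes was also completed after values were seen. Of 7 tested complement genes 6 were above in 3 of 3 pairs (median 1.22) and 3 rose in pairs 2 and 3. Against all 9 controls, however, 3 of 7 were above and the median was -0.15. Over all tested genes 17.7% were above in 3 of 3 pairs and 3.74% rose in pairs 2 and 3. Macrophage markers, which can accompany complement and chemokine messages, had a mean level over 16 markers of 2.58 to 2.73 in Wt and 2.80 to 2.95 in Ts16. All 4 that were tested were higher on average (median 0.62), with 0 called in pairs 2 and 3, and Cd68, Laptm5, Tyrobp and C1qa stayed under 4 on all 6 arrays. The part of such cells was not tested. The antioxidant enzyme genes Nqo1 (1.60, 1.72 and 1.36) and Mgst1 (2.11, 1.47 and 1.33) rose in pairs 2 and 3, among 22 targets of Nrf2 with 5 above and 2 below in every pair and a median of 0.00.

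**Figure D4:**
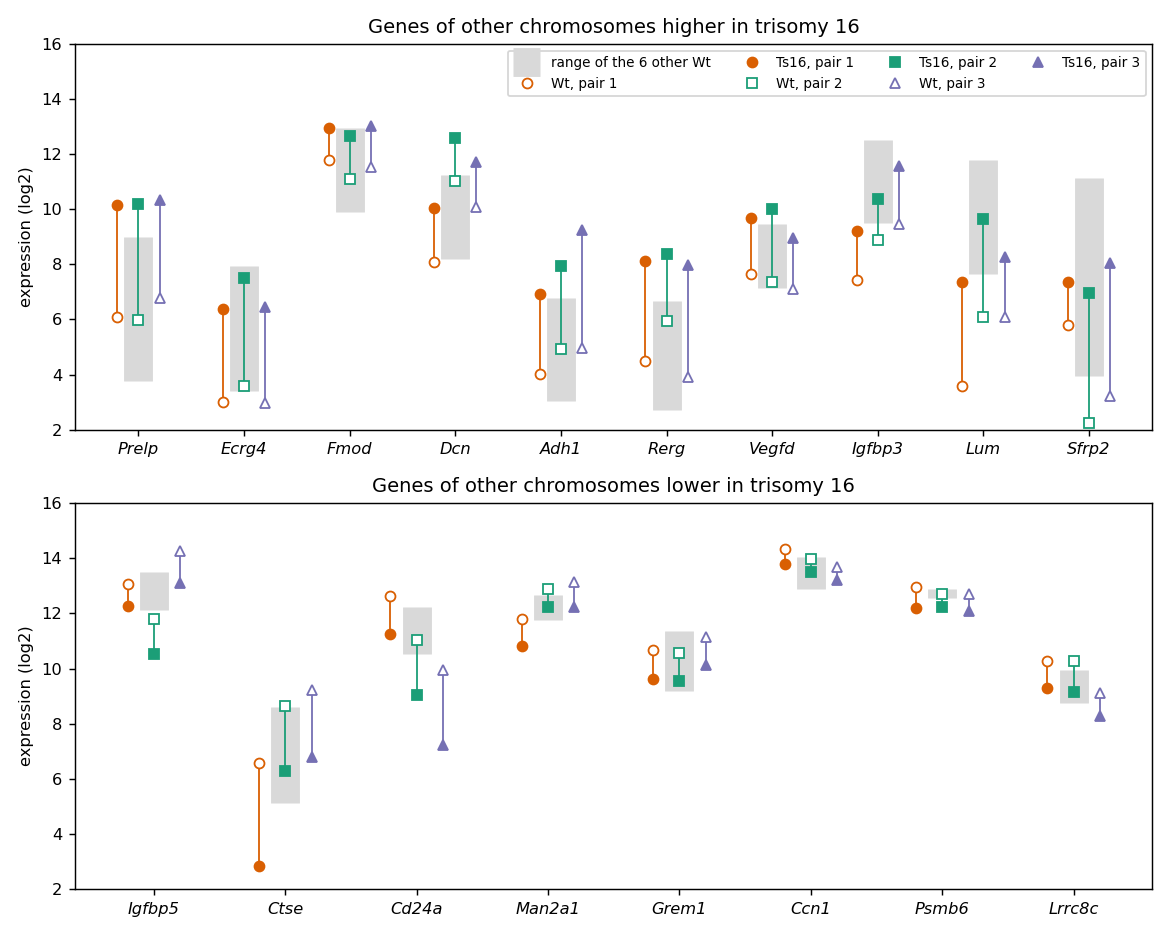
Log2 expression (vertical) of genes off chromosome 16 on each array, with Wt as open and Ts16 as filled symbols, a line joining each pair and a grey bar for the range of the 6 other Wt lines. In the upper panel all 3 Ts16 symbols lie above the paired Wt, and above the grey bar for Prelp, Adh1 and Rerg; in the lower panel they lie below the paired Wt, and below the bar for Psmb6.

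Ctse, the aspartic protease cathepsin E, was lower in each pair, as was Cd24a, a small surface glycoprotein of progenitor cells. Ctse was at 6.55, 8.63 and 9.23 in Wt and at 2.82, 6.27 and 6.80 in Ts16 (-2.84 ± 0.77, SD, n = 3 pairs). The groups overlap between the highest Ts16 array and the lowest Wt array, although the smallest pair difference was -2.36. Averaged with its other probe set, whose mean log2 signal is only 2.43, Ctse differed by -1.40, and against all 9 controls by -1.82. Cd24a was at 12.64, 11.03 and 9.95 in Wt and at 11.24, 9.04 and 7.22 in Ts16 (-2.04 ± 0.67). The differences of Grem1, an inhibitor of bone morphogenetic proteins, were alike in the 3 pairs, with 10.67, 10.57 and 11.13 in Wt and 9.62, 9.54 and 10.13 in Ts16 (-1.03 ± 0.02). These groups did not overlap.

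Igfbp5 differed by -0.80, -1.28 and -1.14, at levels between 10.52 and 14.26. Man2a1, a mannosidase of the Golgi that trims N-glycans, differed by -0.97, -0.67 and -0.92, and Lrrc8c, a subunit of the volume-regulated anion channel, by -0.98, -1.11 and -0.85; against all 9 controls each was at -0.55. Ccn1, a matricellular protein induced by serum, differed by -0.54, -0.49 and -0.47. Psmb6, a catalytic subunit of the proteasome, was at 12.95, 12.70 and 12.70 in Wt and at 12.20, 12.24 and 12.07 in Ts16, and was the one gene of these 8 below all 9 Wt arrays. All 8 fell in pairs 2 and 3, which had a part in choosing them, with limma adjusted p-values of 0.00152 to 0.0165.

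Gene lists put these single genes in context. Off chromosome 16, 1110 genes (15.5%) were above and 1321 (18.5%) below the control in 3 of 3 pairs, with a median of -0.03. Cholesterol and fatty acid synthesis stood at 14 of 24 above and 0 below, with a median of 0.30. Hmgcs1, the synthase that starts the mevalonate pathway, was higher by 0.55, 0.42 and 0.40, Sqle, squalene epoxidase, by 0.51, 0.42 and 0.55, and Idi1, an isomerase of the pathway, by 0.43, 0.43 and 0.81. In pairs 2 and 3, 7 of the 24 rose and 0 fell. In pair 1 a few members were far lower, such as Fdps, which makes farnesyl diphosphate, at -1.99 against 0.15 and 0.28. Against all 9 controls the list median was -0.03, with 11 of 24 above. Adipocyte markers had a mean level over 6 markers of 4.47 to 4.83 in Wt and 4.92 to 5.41 in Ts16; both that were tested, Fabp4 and Lpl, were higher in 3 of 3 pairs and Fabp4 rose in pairs 2 and 3, while Adipoq was under 4 throughout. Their part in the lipid genes was not tested.

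Extracellular matrix genes were uneven, with 15 of 44 above and 5 below in every pair and a median of 0.07. The 9 that rose in pairs 2 and 3 include Eln, elastin (0.76, 2.09 and 1.81), and the microfibril genes Mfap4 (2.08, 1.504 and 1.46) and Mfap5 (0.88, 0.66 and 0.81), whereas the abundant Col1a2 differed by -0.14, -0.07 and -0.02. Against all 9 controls Mfap4 and Eln were at -0.06 and -0.62. The fibroblast markers, which share Lum and Dcn with this list, had 8 of 14 above and 1 below (median 0.45, and 0.17 against all 9 controls), and 6 rose in pairs 2 and 3, with Fap higher by 1.80, 0.51 and 0.82.

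Serum response genes were mostly lower, with 4 of 26 above and 9 below in every pair and a median of -0.37. Beside Ccn1, Ier3, an early gene that restrains cell death, differed by -1.21, -1.19 and -0.47. Fos (1.76, 1.14 and 1.27) and Klf4 (0.88, 0.90 and 0.75), both early transcription factors, went the opposite way and rose in pairs 2 and 3. In those pairs 2 of the list rose and 5 fell. The list of genes induced by ERK signalling, written after values were seen, had 1 of 18 above and 7 below, and Phlda1 differed by -0.73, -1.78 and -1.35.

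Smooth muscle markers had 3 of 14 above and 9 below in every pair, with a median of -0.26; against all 9 controls 7 of 14 were above and the median was 0.02. Cnn1, calponin, was at 11.84, 12.64 and 11.56 in Wt and at 9.39, 11.69 and 10.81 in Ts16, and Tpm1, a tropomyosin, differed by -0.26, -0.30 and -0.26; both fell in pairs 2 and 3. Acta2, smooth muscle actin, differed by at most -0.06. Mylk, itself on chromosome 16, was the only marker that rose in pairs 2 and 3. Myh11, smooth muscle myosin, is also on chromosome 16 and was higher by 0.39, 0.22 and 1.85. Both count among the 3 above in every pair and in the mean level. The mean level over the 14 markers was 11.12 to 11.82 in Wt and 10.94 to 11.49 in Ts16, with pair differences of -0.75, -0.34 and 0.18; fewer cells of a contractile kind and less message per cell cannot be told apart in these cultures.

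Lists of the protein and energy machinery had medians close to 0 against the paired controls. Proteasome genes had 2 of 31 above and 8 below (median -0.10), oxidative phosphorylation 1 of 58 above and 15 below (-0.02), and the cytosolic ribosome 5 of 41 above and 10 below (-0.01). Lysosome genes had 3 of 32 above and 8 below (-0.10). Of the last 3 lists 0, 0 and 1 genes were called in pairs 2 and 3, and of the proteasome Psmb6 and Psmd8. Against all 9 controls the lysosome median was -0.30, with 5 of 32 above. There the proteasome stood at -0.14 (11 of 31 above), oxidative phosphorylation at -0.11 (18 of 58) and the ribosome at -0.04 (15 of 41). Heat shock genes had 3 of 26 above and 5 below, and unfolded protein response genes 2 of 28 and 5. Targets of p53 had 2 of 21 above and 6 below (-0.16). Against all 9 controls the medians of the heat shock, unfolded protein and p53 lists were -0.03, -0.17 and -0.26.

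Proliferation genes had no shared direction over the pairs. Mitosis genes had medians of -0.10, 0.33 and -0.18 in pairs 1, 2 and 3, and 4 of 40 were above in every pair. DNA replication genes had medians of 0.10, 0.28 and -0.29, with 1 of 36 above in every pair. Against all 9 controls 33 of 40 and 31 of 36 were above, so the direction rests on which Wt lines are used. Neither list had a member called in pairs 2 and 3 by limma.

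**Figure D5:**
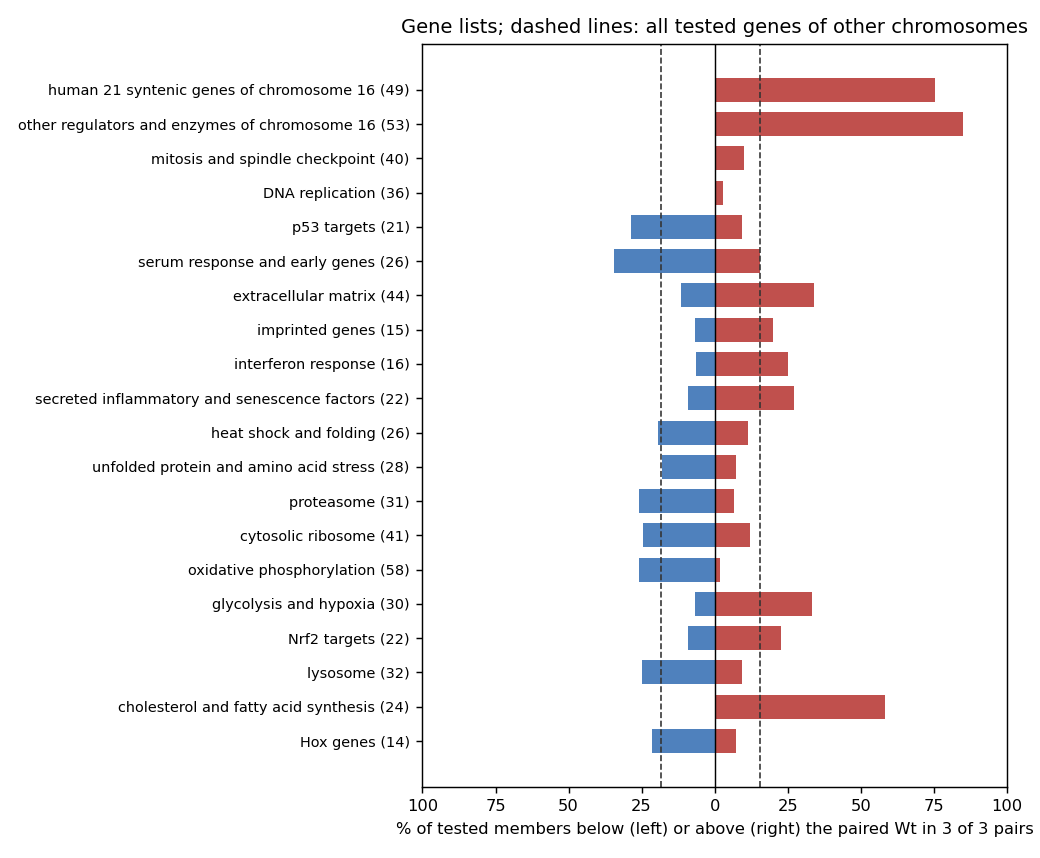
For each gene list (number of tested members in parentheses), the percentage of members above the paired Wt in 3 of 3 pairs is drawn to the right and below it to the left; dashed lines give 15.5% above and 18.5% below for all tested genes off chromosome 16. The 2 chromosome 16 lists reach 75.5% and 84.9% to the right, and cholesterol and fatty acid synthesis 58.3%.

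Secreted inflammatory factors had 6 of 22 above and 2 below in every pair, with a median of 0.25 (-0.09 against all 9 controls). The neutrophil chemokine genes Cxcl5 (1.16, 4.01 and 1.75) and Cxcl1 (2.53, 1.91 and 0.75) rose in pairs 2 and 3, where 6 members of the list rose, 2 fell (Igfbp5 and the protease gene Plat) and the median was -0.01. Interferon response genes had 4 of 16 above and 1 below, with a median of 0.20 (-0.10 against all 9 controls), and 1 member rose in pairs 2 and 3. Of the interferon receptor genes of chromosome 16, Ifnar2 was higher by 1.53, 0.40 and 0.93, Ifnar1 differed by -0.28, 0.18 and 0.65, and Ifngr2 by -2.56, 1.28 and 0.96. Glycolysis genes had 10 of 30 above and 2 below with a median of 0.00. There, Hk2, a hexokinase (-0.21, -0.86 and -0.94), fell in pairs 2 and 3. Imprinted genes had 3 of 15 above and 1 below, and Hox genes 1 of 14 and 3.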

How the data were processed

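The deposited values are log2 expression per probe set, which the authors computed with GCRMA in the affy package, per the submitters' processing notes; neither versions nor settings are stated in those notes. Of 22690 probe sets, the 20393 that the platform annotation lists with 1 gene were used, 691 being listed with several and 1606 with none. Symbols and chromosomes came from RefSeq (GRCm38.p6), and the probe set with the highest mean over 18 arrays stood for its gene. Genes with a mean log2 of at least 4 entered a fit in limma 3.58.1, run under R 4.3.3 (lmFit, eBayes with trend; two-sided; Benjamini-Hochberg over 7382 genes, threshold 0.05), with the replicate number as a block. The labels tie same-numbered arrays by their first number, and deviations of same-numbered Ts16 and Wt arrays from the group means were correlated (r = 0.676, 0.514 and 0.828), so the numbers were taken to pair the arrays. The second fit left out pair 1. The procedure was tested on simulated data. There the fit of pairs 2 and 3 made a share of false calls above its threshold, and the fit of 3 pairs missed most changes of 1 log2 unit. Members, gene lists and alternatives were chosen with earlier results of these data known; 6 family lists were completed after values were seen. Named genes are those with the smallest p among genes of 1 direction in 3 of 3 pairs, leading members of each list, and others said to be chosen after their values were seen. Alternatives were other blocks, controls, filters, probe set summaries, scalings and left-out arrays. Arrays give no counting depth, and the 3 pairs limit the precision. Figures were drawn with matplotlib 3.10.9.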

Additional observations from a re-analysis of the deposited data

How the results depend on the processing

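The count of genes that limma called over the 3 pairs was 0 in most alternatives. With all 9 controls in a fit of 18 arrays it was 3, each on chromosome 16, and leaving out 1 replicate or 1 array gave 0 to 424 genes, of which 0 to 118 lay on chromosome 16 and 0 to 306 elsewhere; of those fits only the one without pair 1 made any call. With the first number as a block, the fit of 18 arrays called 0 genes (253 at an unadjusted p under 0.05). The fit with no replicate block, which drops the pairing, called 0 genes, with 191 at an unadjusted p under 0.05, and gave a chromosome 16 shift of 0.74. Against 1.5-fold, leaving out replicates gave 0 to 29 genes. Without the filter on low signals 166 of 414 genes passed, in either direction from that ratio. That setting adds genes with a mean log2 under 4, and its chromosome 16 shift was 0.46. The shift was 0.72 against all 9 controls (exact permutation p = 0.0045) and 0.74 with the first number as a block (exact permutation p = 0.167). It was 0.72 to 0.75 with a replicate left out, and 0.69 to 0.76 with 1 array left out and no pair term. Genes of 1 direction and at least the dose ratio in every remaining pair numbered 161 to 223 higher and 141 to 173 lower elsewhere, against 114 and 53 over 3 pairs (fewer pairs must agree), and 87 to 94 higher on chromosome 16; median centring gave 32 lower. Igfbp3 reversed against all 9 controls, at -0.25 (limma adjusted p = 0.954); the cause was not tested. Over the 26 genes named by p, 488 values kept their direction and side of the threshold, 28 passed it and 1 reversed. Of the 28, 26 came from the fit of pairs 2 and 3 alone. The rest were Atg3 and Vps26c in the fit of 18 arrays with all 9 controls. In fits without the pair term that leave out 1 array, the values of Dcn, Igfbp3, Igfbp5, Ctse, Cd24a, Man2a1, Mylk and Ccn1 moved by over 1.5 times. Over the medians of 20 lists, 329 stayed within the spread between pairs and 71 moved.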

Other observations

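Among genes off chromosome 16, chosen after their values were seen because every Ts16 array lay beyond all 9 Wt arrays, Heph, the membrane ferroxidase hephaestin, was at 4.58, 3.86 and 3.83 in the paired Wt and at 8.18, 6.05 and 6.23 in Ts16. The protease inhibitor gene Serpinb6b was higher by 3.94, 1.03 and 1.66, and Kcne4, a regulatory subunit of potassium channels, by 3.47, 1.57 and 1.31. Id4, an inhibitor of differentiation factors, was higher by 0.62 on average. Lower than all 9 were Slc25a30, a mitochondrial carrier, at -1.31 on average, Sgtb, a co-chaperone, at -0.94, Asl, argininosuccinate lyase, at -0.71, and Chka, choline kinase, at -0.82.

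Some genes called in pairs 2 and 3 went the other way in pair 1, and are also named after their values were seen. Igf2, the fetal growth factor, was at 13.56, 12.34 and 13.51 in Wt and at 11.73, 13.27 and 14.10 in Ts16. Notch1, a receptor, differed by -1.41, 0.79 and 0.87, and Igfbp2 by -0.97, 1.20 and 0.94. Aqp1, a water channel, was higher by 3.12 and 3.96 in pairs 2 and 3 and at -0.34 in pair 1. The iron exporter gene Slc40a1 differed by 1.07, -2.89 and -2.16, and the membrane protease gene Mmp16 by 0.90, -2.35 and -3.37.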
